A study of Mus musculus with 6 samples.

Results

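The 9 genes described here encode antagonists of bone morphogenetic proteins (BMPs) and activins: Nog, Grem1, Sostdc1, Chrd, Chrdl1, Bmper, Fst, Fstl1 and Bambi. They were taken by symbol, and all 9 were found among the 26130 genes of the deposited count table. Their RNA was measured in skeletal stem cells of C57BL/6 mice, progenitors that renew themselves and give rise to skeletal tissues. The cells were obtained by fluorescence-activated sorting where the Achilles tendon enters the bone. The 6 libraries comprised 2 sham controls, 1 uninjured sample and 3 samples with a partial injury of that interface, and the design places collection at day 7 after injury. The labels name no genetic change or drug for any group. The surface markers of the sort, the age and sex of the mice, and whether a library holds 1 animal or a pool are not stated in the sources used here. The uninjured library carries that name in its title and treatment but is numbered among the shams in its description. The first comparison therefore left it as a group of its own, and the second pooled it with sham control.

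BMPs and activins are secreted dimers of the TGF-beta superfamily that assemble type I and type II receptor kinases at the cell surface. BMP receptors activate Smad1, Smad5 and Smad9, activin receptors activate Smad2 and Smad3, and both groups of Smads act with Smad4 on target genes. In the skeleton BMPs drive cartilage and bone formation, and secreted antagonists that trap the ligand set where and how strongly they act. The noggin, gremlin and sclerostin-like antagonists carry a cystine knot, chordin and its relatives carry cysteine-rich repeats, and follistatin binds activins very tightly. Bambi is the exception in the group: its product is not secreted but is a transmembrane pseudoreceptor without a kinase domain.

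Promoters are shown for Chrd and Fstl1 because they are the 2 members counted in every library whose injured values lay apart from all others, on opposite sides. From RefSeq's table on GRCm38.p6, stretches were taken for 4 of the 9 symbols (Grem1, Chrd, Bmper and Fstl1), with 250 bases before and 50 after the start of transcription. The Chrd stretch is chr16:20732877-20733176 on the + strand and the Fstl1 stretch chr16:37776805-37777104 on the + strand, both printed 5′ to 3′ with the letters GGCGCC in capitals.
Chrd promoter: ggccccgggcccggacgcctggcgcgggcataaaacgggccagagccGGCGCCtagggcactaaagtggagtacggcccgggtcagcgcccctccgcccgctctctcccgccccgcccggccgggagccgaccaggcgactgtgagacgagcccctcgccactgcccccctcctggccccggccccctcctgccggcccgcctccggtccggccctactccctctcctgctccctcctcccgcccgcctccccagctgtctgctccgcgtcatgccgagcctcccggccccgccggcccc
Fstl1 promoter: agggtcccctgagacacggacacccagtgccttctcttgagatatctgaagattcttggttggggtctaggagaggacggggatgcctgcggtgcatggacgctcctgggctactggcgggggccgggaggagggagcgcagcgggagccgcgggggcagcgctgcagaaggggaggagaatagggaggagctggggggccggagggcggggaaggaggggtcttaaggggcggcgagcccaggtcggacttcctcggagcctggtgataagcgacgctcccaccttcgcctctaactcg
GGCGCC, a GC-rich sequence that BMP-activated Smads can bind, was searched on both strands, as were GTCTAGAC, a palindromic Smad sequence, and TATAAA, the core of a TATA box. Chrd held 1 GGCGCC match, which starts 203 bases before the start site, Grem1 held 1, starting 78 bases before, and the Bmper and Fstl1 stretches held none. Of 32851 promoters of this length, 11.9% held GGCGCC, 0.213% GTCTAGAC and 13.6% TATAAA, and the latter 2 were not found in any of the 4 stretches. The Chrd stretch is 78.3% G or C, which itself makes GC-rich letters more frequent, and the Fstl1 stretch 66.7%.

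Total counts ran from 37506188 to 51089267 per library, and 14183 to 17281 genes had a count. The labelled cell type was checked by surface genes usual for it: Itgav stood at 31.0 to 116 and Cd200 at 31.0 to 160.0 CPM, so both were present in every library. CPM here is the count divided by the scaled library size, per 1000000. Genes usually selected against (Ptprc, Tek, Thy1, Enpep and Eng) summed to 297 CPM in sham 1 but 0.663 CPM in sham 2, and to 18.2 to 121 CPM elsewhere. Sham 1 and injured 1 stood apart by ribosomal RNA, at 15% and 14.7% of counts against 2.89% to 5.32%, and by neutrophil genes, whose sums of 9941 and 6293 CPM exceeded the 4.36 to 791 CPM of the other libraries. Macrophage genes summed to 2892 CPM in sham 1, 4858 in injured 1 and also 1220 in injured 2, against 37.2 to 176 CPM elsewhere. Erythroid genes summed to 38750 CPM in sham 1, 6081 in injured 1 and 595 in injured 2, against 1.19 to 126 CPM elsewhere. Chondrocyte genes were highest in sham 2 (31420 CPM in sum) and injured 3 (57200 CPM), against 6292 to 17300 CPM elsewhere, a sum that Col2a1 leads in both. In bulk RNA a smaller number of expressing cells and less RNA per cell cannot be told apart, which holds for every difference below.

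The first question was which antagonists the cells expressed at all. Fstl1, a secreted glycoprotein with a follistatin domain, was far the most abundant member. Per kilobase of merged exons (GENCODE M21), its level ranged from 194 to 415 CPM, above every value of the other 8 genes. Bambi followed with a median of 11.9 CPM per kilobase over the 6 libraries, then Bmper (6.02), Fst (5.82), Sostdc1 (2.75), Chrdl1 (2.72), Chrd (2.45), Nog (1.16) and Grem1 (0.126). Below Fstl1, each gene's range overlapped that of its neighbour in this order. Chrd, Chrdl1, Bmper, Fst, Fstl1 and Bambi had counts in all 6 libraries, whereas Nog was at 0 in 1, Sostdc1 in 2 and Grem1 in 3.

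**Figure D1:**
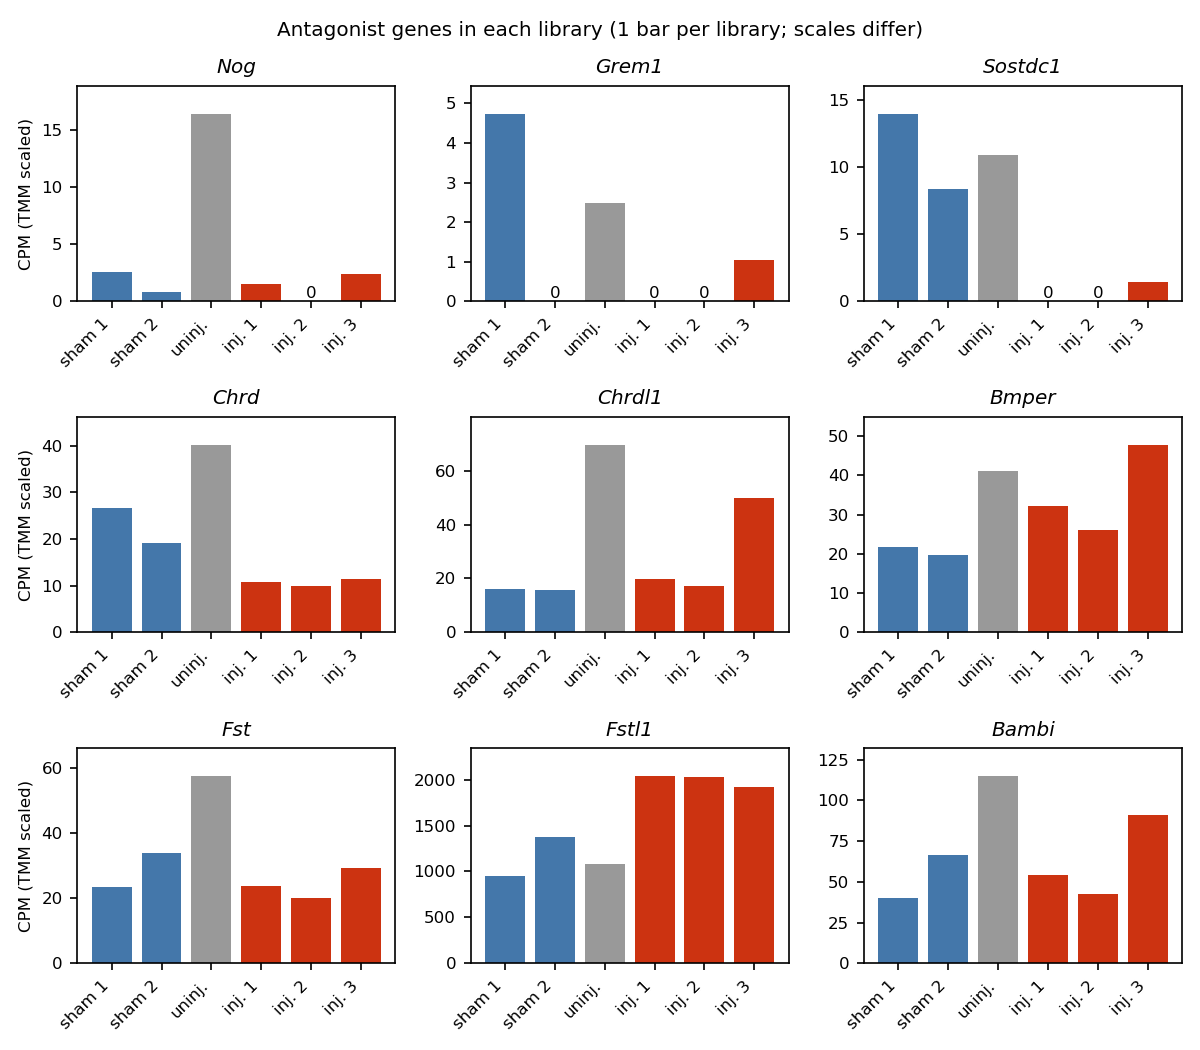
TMM-scaled CPM of each antagonist gene (vertical axis, linear, starting at 0, with its own range in each panel) in the 2 sham control (blue), 1 uninjured (grey) and 3 injured (red) libraries, 1 bar per library and no error bars. Injured bars lie above all others for Fstl1 and below all others for Chrd and Sostdc1, and the uninjured bar is the tallest for Nog, Chrd, Chrdl1, Fst and Bambi.

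The first comparison set injured cells against sham control. Fstl1, Bmper and Chrdl1 were higher in all 3 injured libraries than in both sham libraries, though Chrdl1 overlapped when scaled by relative log expression (RLE), and Chrd and Sostdc1 were lower in all 3. Such separation was seen for 5 of 9 members against 21% of the 16752 genes tested (3 members above against 11.9%, 2 below against 9.11%). None of the 9 passed edgeR's quasi-likelihood test after Benjamini-Hochberg adjustment over all genes (0% of genes passed). By edgeR 0 had an unadjusted p under 0.05 (4.64% of genes did). DESeq2 called 0 (2.52% of genes with an adjusted p). Its unadjusted p was under 0.05 for Chrd (0.0102) and Fstl1 (0.0316), and that of limma-voom for Sostdc1 (0.00455) and Fstl1 (0.0433). The share of all genes under 0.05 by these tests was not counted, and no member passed their adjustment. The log2 fold change was above 0 for 4 members, against 53.7% of genes, and below 0 for 5, against 46%. Its median was -0.23 over the members and 0.09 over all genes.

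The second comparison, against all 3 non-injured libraries, shares 5 of its 6 libraries with the first. There the injured libraries stood apart for 3 of 9 members, against 16.3% of 14110 genes: Fstl1 above (9.26% of genes lay above) and Chrd and Sostdc1 below (7.04%). By edgeR 0 members passed (0% of genes) and Chrd alone had an unadjusted p under 0.05 (7.43% of genes, 3.71% higher and 3.72% lower in injured). DESeq2 called 1 member, Chrd, against 3.32% of genes. Of the 9 log2 fold changes 7 were below 0, against 49.9% of genes, and 2 above, against 50.1%, with a median of -0.65 against 0.00 for all genes.

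Among the cystine-knot antagonists, Sostdc1 had the largest difference of means. Its product, also known as Wise or ectodin, binds BMPs as well as Wnt co-receptors. Sostdc1 stood at 13.9 and 8.36 CPM in sham 1 and 2, at 10.9 in the uninjured library, at 0 in injured 1 and 2, and at 1.43 CPM in injured 3. The groups did not overlap, and a count of 0 allows up to 0.0679 CPM in injured 1 and 0.0496 CPM in injured 2 (3 counts each, counting error only). The mean was 0.478 ± 0.827 CPM in injured (SD, n = 3) against 11.1 ± 3.93 in sham control (SD, n = 2), a ratio of 23.3 with sham the higher, and against 11.1 ± 2.78 over all non-injured (SD, n = 3). The log2 fold change was -4.54 ± 2.47 (SE) against sham control, with an edgeR unadjusted p of 0.110 and an adjusted p of 0.865, and DESeq2 gave an adjusted p of 0.498. All counts of injured cells, 67 in number, came from injured 3, so without that library there is no fold to give. Against all non-injured libraries the difference was -4.54 ± 2.28 (SE; edgeR unadjusted p = 0.0853, adjusted p = 0.772).

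Nog encodes noggin, which covers the receptor-binding faces of BMPs. It stood at 16.4 CPM (675 counts) in the uninjured library, at 2.57 and 0.828 in sham 1 and 2, and at 1.54, 0 and 2.40 CPM in injured 1, 2 and 3. The uninjured library was the only high one, 9.67 times the sham mean, and sham and injured values overlapped. The log2 fold change was -0.37 ± 2.09 (SE) against sham control and -2.34 ± 2.04 (SE) against all non-injured, with edgeR unadjusted p of 0.864 and 0.287 (adjusted p = 1.00 and 0.906).

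Grem1 encodes gremlin, a BMP antagonist also used as a marker of a skeletal stem cell population of bone. Sham 1 held 175 Grem1 counts and sham 2 none, the uninjured library 102, and injured 3 held 49 where injured 1 and 2 had none, or 4.73, 0, 2.48, 0, 0 and 1.05 CPM. Each labelled group with replicates thus held libraries with and without a count. Its log2 fold change against sham control, -2.75 ± 3.31 (SE; edgeR unadjusted p = 0.433, adjusted p = 0.941), is set by 1 sham library: without sham 1 no count is left in that group.

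Of the chordin group, Chrd stood lower in injured cells in both comparisons. Chordin holds BMPs in an inactive complex until tolloid proteases such as Bmp1 cut it. Chrd stood at 26.7 and 19.2 CPM in sham 1 and 2, at 40.1 in the uninjured sample and at 10.8, 9.93 and 11.5 CPM in injured 1, 2 and 3. Every injured library was below every other, and the injured values were close together, at 10.7 ± 0.780 CPM (SD, n = 3) against 23.0 ± 5.29 in sham control (SD, n = 2) and 28.7 ± 10.6 over all non-injured (SD, n = 3). The sham mean was 2.14 times, and the non-injured mean 2.67 times, the injured one. The log2 fold change was -1.10 ± 0.53 (SE) against sham control (edgeR unadjusted p = 0.0795, adjusted p = 0.865) and -1.43 ± 0.49 (SE) against all non-injured (edgeR unadjusted p = 0.0212, adjusted p = 0.550).

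DESeq2's adjusted p for Chrd against all non-injured was 0.0287, with a log2 fold change of -1.48. Run on only the genes that edgeR's low-count filter keeps, an alternative chosen after seeing the data, DESeq2 gave the same fold and an adjusted p of 0.116, so the call was lost. Chrd shares 239 exon bases with Thpo, the thrombopoietin gene on the opposite strand, and the sources used here do not say whether strand was used in counting. Thpo had 225 and 170 counts in sham 1 and 2, 0 in the uninjured sample and 2, 0 and 11 in the injured ones, whereas Chrd had 988 and 696, 1651, and 476, 600 and 537. Thpo was thus lower in all 3 injured libraries than in both sham libraries, as Chrd was, and its part in the Chrd counts was not tested.

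Among markers of Schwann cells, Mbp and Pmp22 were also lower in every injured library than in every other one, as were 7.04% of all genes tested. Mbp stood at 1629, 111 and 108 CPM in sham 1, sham 2 and the uninjured library and at 89.5, 11.8 and 14.4 CPM in the injured ones, and Pmp22, which other cells express too, at 1689, 549 and 785 against 348, 277 and 224 CPM. Prx, Mag, Sox10 and S100b overlapped between injured and non-injured libraries. Of 8 smooth muscle and pericyte genes, Myh11 was likewise lower in every injured library, at 199, 40.7 and 299 against 7.54, 6.52 and 31.1 CPM. In the uninjured library Mag and Sox10 were at 0, while 6 of the 8 Schwann cell markers had counts. Among those 6, Mbp stood at 108 and Pmp22 at 785 CPM there. The part of these genes and cell types in the lower Chrd and Sostdc1 of injured cells was not tested. With sham 1 and injured 1 left out together, also chosen after seeing the data, log2 fold changes against all non-injured were -1.47 for Chrd, -3.75 for Sostdc1 and 0.68 for Fstl1. Against sham control, which this leaves with sham 2 alone, they were -0.85, -3.55 and 0.52 in place of -1.10, -4.54 and 0.78. Injured 2, whose macrophage genes summed to 1220 CPM, stayed in both fits.

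Chrdl1 and Bmper are the other genes with chordin-like repeats. Chrdl1, a chordin-like secreted BMP antagonist, measured 16.0 and 15.5 CPM in sham 1 and 2, 69.5 in the uninjured sample and 19.7, 17.0 and 49.9 CPM in injured 1, 2 and 3. The uninjured library and injured 3 were high, and the remaining 4 lay within 15.5 to 19.7 CPM. Its log2 fold change was 0.87 ± 0.62 (SE; edgeR unadjusted p = 0.203, adjusted p = 0.865) against sham control, where the injured mean was 28.9 ± 18.2 CPM (SD, n = 3) against 15.8 ± 0.341 (SD, n = 2). It was 0.19 without injured 3. Against all non-injured it was -0.23 ± 0.74 (SE; edgeR unadjusted p = 0.764, adjusted p = 0.993), so the sign turns on where the uninjured library is placed.

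Bmper encodes BMP-binding endothelial regulator, the vertebrate counterpart of crossveinless-2, which can inhibit or promote BMP signalling depending on context. Bmper stood at 21.8 and 19.8 CPM in sham 1 and 2, at 41.2 in the uninjured sample and at 32.3, 25.9 and 47.7 CPM in injured 1, 2 and 3. The injured libraries were above both sham libraries, while the uninjured library lay within their range. The log2 fold change was 0.76 ± 0.49 (SE) against sham control (edgeR unadjusted p = 0.164, adjusted p = 0.865) and 0.35 ± 0.46 (SE) against all non-injured (edgeR unadjusted p = 0.470, adjusted p = 0.958).

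Fstl1 was the one member with all injured libraries above all others in both comparisons. Fstl1 shares a follistatin-like domain with follistatin, and its product is a matrix-associated glycoprotein of mesenchymal cells. It stood at 951 and 1373 CPM in sham 1 and 2, 1078 in the uninjured sample and 2038, 2025 and 1916 CPM in injured 1, 2 and 3. The injured values were tightly grouped, at 1993 ± 67.3 CPM (SD, n = 3), against 1162 ± 298 in sham control (SD, n = 2) and 1134 ± 216 over all non-injured (SD, n = 3). The injured mean was 1.71 times the sham and 1.76 times the non-injured mean. The difference of 0.78 ± 0.46 log2 units (SE) against sham control did not pass by edgeR (unadjusted p = 0.135, adjusted p = 0.865), nor did that of 0.81 ± 0.35 (SE) against all non-injured (unadjusted p = 0.0549, adjusted p = 0.691). DESeq2's adjusted p was 0.395 and 0.0838. In the chondrocyte list, 3 of 10 genes also lay higher in every injured library than in every other one, as did 9.26% of all genes tested. Cnmd (chondromodulin) stood at 1.40, 2.04 and 4.09 CPM in sham 1, sham 2 and the uninjured sample and at 311, 119 and 832 CPM in injured 1, 2 and 3, Col9a1 at 5.08 to 12.5 against 76.2 to 1029 CPM, and Matn3 at 0 to 26.9 against 136 to 1557 CPM. So did 1 of 8 tendon genes, Scx (8.92 to 41.5 against 56.7 to 89.5 CPM), and 3 of 9 skeletal muscle genes (Ckm, Tnnt3 and Tnni2, none above 6.77 CPM). The other genes of these lists overlapped. Injured means were lower for some, as for Sox9 (216 against 611 CPM over all non-injured), Comp (3603 against 7645) and Egr1 (812 against 2532). They were higher for others, as for Acan (1483 against 579) and Col2a1 (19798 against 6231). The part of these genes and cell types in the higher Fstl1 of injured cells was not tested. With 35210 to 122354 counts per library, the counting error of Fstl1 is small beside the spread between libraries.

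Fst, which encodes follistatin, the tight binder of activins, stood at 23.6 and 34.0 CPM in sham 1 and 2, 57.6 in the uninjured sample and 23.9, 20.2 and 29.5 CPM in injured 1, 2 and 3. Sham and injured values overlapped, and the uninjured library was again the high one. Its log2 fold change was -0.23 ± 0.46 (SE) against sham control and -0.65 ± 0.45 (SE) against all non-injured (edgeR unadjusted p = 0.629 and 0.185, adjusted p = 0.982 and 0.862). Fst shares 115 exon bases with Gm47040, an antisense gene, so its counts may hold reads of that gene if strand was not used. Gm47040 was not found by symbol in the deposited count table, so its counts could not be set beside those of Fst.

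Bambi, the membrane pseudoreceptor and itself a gene that BMP and TGF-beta signals can induce, stood at 40.1 and 66.4 CPM in sham 1 and 2, 115 in the uninjured sample and 54.0, 42.8 and 90.7 CPM in injured 1, 2 and 3. The groups overlapped in both comparisons. Its log2 fold change was 0.23 ± 0.48 (SE) against sham control and -0.25 ± 0.48 (SE) against all non-injured (edgeR unadjusted p = 0.649 and 0.624, adjusted p = 0.983 and 0.982), and the sign differed between them.

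**Figure D2:**
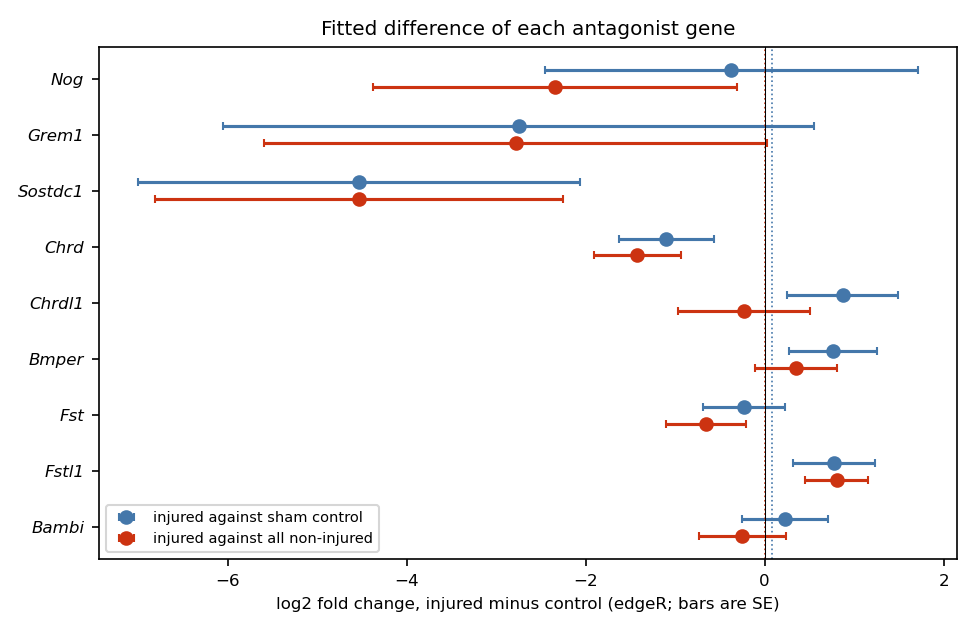
Log2 fold change of each antagonist gene (horizontal axis, points with SE bars from edgeR) for injured against sham control (blue) and against all non-injured libraries (red), which share 5 libraries. Dotted lines mark the median of all genes tested. Chrd sits at -1.10 and -1.43 and Fstl1 at 0.78 and 0.81 with short bars, whereas Nog, Grem1 and Sostdc1, which have libraries at 0, carry bars of over 2 log2 units.

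The uninjured library held the highest value of the 6 for 5 members (Nog, Chrd, Chrdl1, Fst and Bambi), a count made after the values were seen, against 19.1% of genes. Relative to the sham mean it was 9.67 times as high for Nog, 4.41 for Chrdl1, 2.16 for Bambi, 2.00 for Fst, 1.98 for Bmper and 1.75 for Chrd. It was close to the sham mean for Grem1 (1.05), Sostdc1 (0.978) and Fstl1 (0.928). With 1 uninjured library these ratios have no replicate check.

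**Figure D3:**
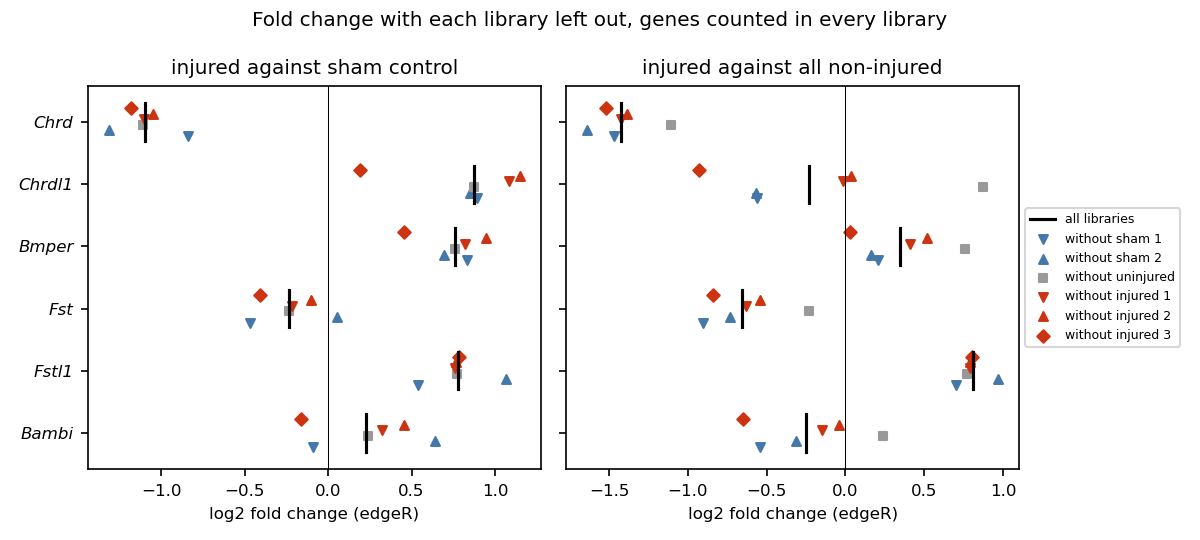
Log2 fold change (horizontal axis) of the 6 genes counted in every library, with all libraries (black line) and with each library left out in turn (symbols), against sham control (left) and all non-injured (right). Chrd stays between -1.31 and -0.84 on the left and -1.64 and -1.11 on the right, Fstl1 between 0.54 and 1.07 and between 0.70 and 0.97, while Fst on the left, Chrdl1 on the right and Bambi on both sides cross 0.

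The remaining genes of the pathway were read from 7 lists, and no gene of any list passed edgeR's adjustment in either comparison. Of all genes tested, 46% were below 0 against sham control and 49.9% against all non-injured. Among 15 tested secreted antagonists outside the 9, 10 were higher and 5 lower against sham control. Their median log2 fold change was 0.55, also with 3 genes lacking any count in a group (Sost, Vwc2 and Wfikkn1) at their bound. That median is the value of Wfikkn2 (SE 2.99), with counts of 1 and 0 in sham control and 0, 0 and 3 in injured. Against all non-injured, 6 of 11 were higher and 5 lower, with a median of 0.14. With scaling by library size alone, 5 were higher and 6 lower (median -0.02). At an edgeR unadjusted p under 0.05 against sham control, 2 were higher (2.44% of all genes were) and 1 lower (2.2%). Nbl1, a gremlin relative also called DAN, stood at 789, 1397 and 1304 CPM in sham 1, sham 2 and the uninjured library and at 505, 607 and 316 CPM in the injured ones (log2 fold change -1.20 ± 0.49 SE). The small leucine-rich protein Tsku (tsukushi), which can bind BMP and chordin, lay on the other side, at 13.6, 6.40 and 3.96 against 49.0, 31.8 and 24.6 CPM (1.81 ± 0.66 SE). Neither overlapped between groups, and DESeq2 called both against all non-injured (adjusted p = 0.0472 and 0.0497). Kcp, a chordin-like protein, had counts of 2 and 0 in the sham libraries against 12.7, 1.54 and 3.08 CPM in injured, and DESeq2 called it against sham control (adjusted p = 0.00103), but the uninjured library held 6.90 CPM. DESeq2's other call in this list, Sost, had counts in injured 2 alone.

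Of the list of chordin proteases and procollagen processing enhancers, 2 of 4 tested genes lay on each side of 0, or 3 above with scaling by library size alone. Bmp1, the protease that cuts chordin and trims procollagen, stood at 290, 327 and 202 CPM in sham 1, sham 2 and the uninjured library and at 572, 400 and 456 CPM in the injured ones, without overlap. Its log2 fold change was 0.62 ± 0.38 (SE) against sham control (edgeR unadjusted p = 0.146) and 0.80 against all non-injured (unadjusted p = 0.0452). Pcolce2, an enhancer of procollagen processing, stood at 231, 541 and 442 against 117, 119 and 228 CPM (log2 fold change -1.32 ± 0.52 SE against sham control). The related protease Tll1 varied from 0.0243 to 13.8 CPM with overlap between groups.

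Of the ligands the antagonists bind, 9 of 13 tested BMP and GDF genes were below 0 against sham control, with a median of -0.22, a direction that turned with scaling by library size alone (6 of 13 below, median 0.02). Against all non-injured libraries 9 of 11 were below 0 (median -0.62), and 9 of 11 also with that scaling. Gdf10 stood at 110, 87.8 and 229 CPM in sham 1, sham 2 and the uninjured library and at 42.2, 17.2 and 54.6 CPM in the injured ones, a log2 fold change of -1.38 ± 0.53 (SE) against sham control. Bmp2, a strong inducer of bone, ranged from 66.8 to 605 CPM in non-injured and from 17.4 to 134 CPM in injured libraries (-2.13 ± 1.04 SE), and Bmp8a from 11.7 to 28.0 and from 0.159 to 8.26 CPM. Among activin and inhibin subunits, Inhba, which forms activin A, ranged from 28.7 to 355 CPM in non-injured and 44.8 to 323 CPM in injured libraries, with full overlap. Inhbb was counted in injured 3 alone among the injured libraries (4.64 CPM) and stood at 6.03 to 19.0 CPM elsewhere. Inha was at 0 in sham 2 and injured 2 and at most 4.35 CPM.

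Receptor and co-receptor genes had a median log2 fold change of -0.55 against sham control, with 8 of 13 below 0. Against all non-injured libraries 10 of 12 were below 0 (median -0.92), and 10 of 12 also with scaling by library size alone (median -0.89). Tgfbr3 (betaglycan, a co-receptor for TGF-beta and inhibin) stood at 197, 168 and 375 CPM in sham 1, sham 2 and the uninjured library and at 58.3, 112 and 78.9 CPM in the injured ones, and DESeq2 called it against all non-injured (adjusted p = 0.0304). Rgmb, a BMP co-receptor, stood at 52.4, 31.9 and 41.4 against 15.3, 7.81 and 23.4 CPM, again without overlap. The type I receptor Acvrl1 ranged from 39.2 to 101 CPM in non-injured and from 16.4 to 60.4 CPM in injured libraries.

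Of the Smads and their ubiquitin ligases 9 of 10 were below 0 against sham control, with a median of -0.24. With scaling by library size alone 6 of 10 were, with a median of -0.05. Against all non-injured libraries 9 of 10 were below 0 (median -0.45), and 8 of 10 with that scaling (median -0.41). Smad3, the activin and TGF-beta transducer, stood at 93.5, 84.8 and 105 CPM in sham 1, sham 2 and the uninjured library and at 41.4, 51.5 and 49.5 CPM in the injured ones, and DESeq2 called it against all non-injured (adjusted p = 0.00371). Smad1, the BMP transducer, stood at 48.6, 70.3 and 44.2 against 73.8, 92.9 and 72.5 CPM, the single gene of the list above 0 with TMM scaling. Smurf1, a ligase that marks Smads and receptors for degradation, lay between 46.5 and 52.7 CPM in non-injured and 28.4 and 42.6 CPM in injured libraries.

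Genes known to respond to BMP had 10 of 14 below 0 against sham control (8 with scaling by library size alone), with a median of -0.62. Against all non-injured, 12 of 13 were below 0, with a median of -0.97, which is the value of Smad6. Smad6 and Smad7 belong to this list and to the list of Smads alike. Msx1, a homeobox gene, stood at 12.1, 16.1 and 22.7 CPM in sham 1, sham 2 and the uninjured library and at 2.40, 3.38 and 3.91 CPM in the injured ones, a log2 fold change of -2.12 ± 0.80 (SE). DESeq2 called Msx1 in both comparisons (adjusted p = 0.00704 and 5.6e-05). Id4 stood at 7.35, 9.28 and 13.9 against 2.17, 0.463 and 2.93 CPM, while the Id2 libraries overlapped, at 113 to 271 CPM in non-injured and 75.7 to 128 CPM in injured. Id1, named after its values were seen as the most used BMP readout, ranged from 42.2 to 74.6 and from 37.4 to 65.0 CPM, with a log2 fold change of 0.22 against sham control and -0.04 against all non-injured libraries.

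**Figure D4:**
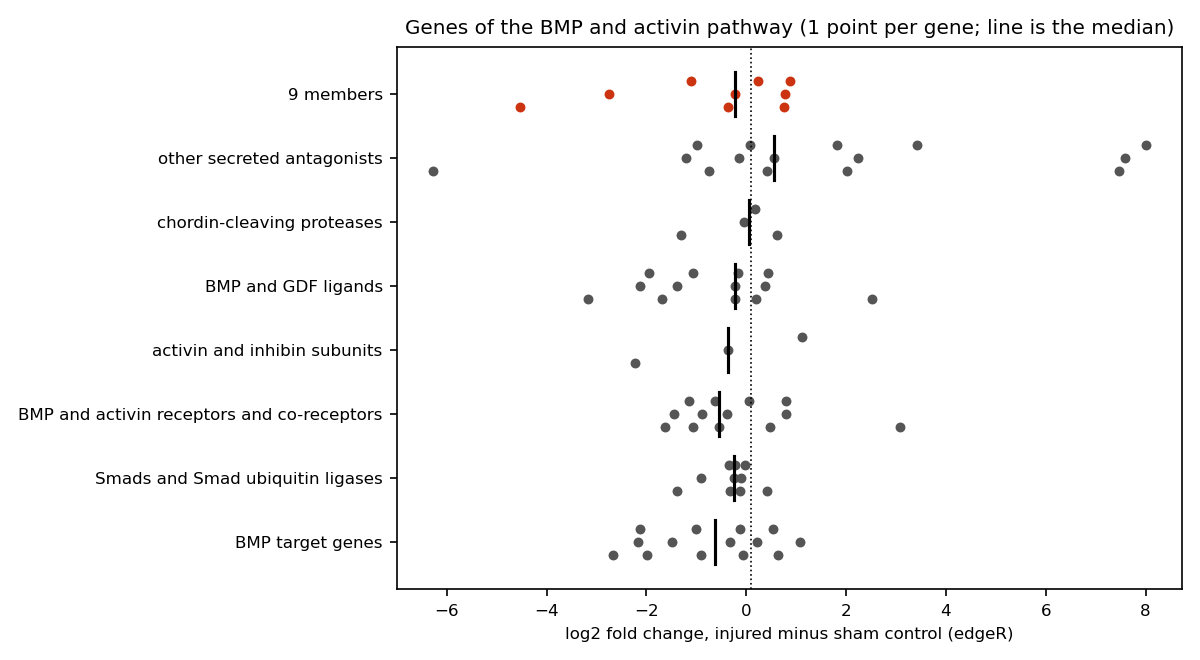
Log2 fold change of injured minus sham control (horizontal axis, edgeR, 1 point per gene, spread vertically for legibility) for the 9 antagonists (red) and 7 lists of the same pathway (grey), with each median as a black line and the median of all genes dotted at 0.09. Medians run from -0.62 for target genes to 0.55 for the other secreted antagonists, whose 4 points beyond 6 in size belong to Sost, Vwc2, Wfikkn1 and Kcp, genes with at most 2 counts in sham control or none in injured.

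The genes most like each well-counted member over the 6 libraries were named by the highest Pearson correlation of log2(CPM + 1) among 9019 genes with a mean of at least 10 CPM. Chrd was most like Procr and Uts2r (r = 0.995 each), Fstl1 like Rcc1 (0.997) and Vta1 (0.994), and Bambi like Tmx3 (0.991) and Arhgap5 (0.985). Fst was most like Ccdc80 (0.988) and Bicc1 (0.987), Chrdl1 like Vps4b (0.985) and Edc4 (0.980), and Bmper like Nup133 (0.976) and Gatad1 (0.9495). With 6 points from libraries that differ in depth and cell content, such values are descriptions only: 66 genes exceeded 0.95 for Fstl1, 47 for Chrd and 1 for Bmper.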

How the data were processed

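The authors' deposited table holds whole-number counts per gene symbol in 6 libraries made, per the labels' protocols, by SMARTer amplification of cDNA, with an RNA input of 150 pg. Salmon 0.12.0, DESeq2 1.22.2 and DESeq are named in the submitters' processing notes, with the builds GRCm38.p6 and mm9, without roles. No molecular identifiers are named, so limits from counts cover counting error only. All 6 columns were used.

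Counts were scaled by the trimmed mean of M-values (TMM) to CPM and tested with edgeR 4.0.16 under R 4.3.3 (filterByExpr with a minimum count of 10, quasi-likelihood F test, Benjamini-Hochberg adjustment over all genes, threshold 0.05). The fit against sham control held 3 groups (3 residual degrees of freedom), the other 2 groups (4). SEs were derived from F. Groups came from the titles, and since the labels do not name separate animals, p-values measure only the spread between libraries. DESeq2 1.42.0 and limma 3.58.1 (voom) were alternatives, beside other scalings, no filter, each library left out and a replicate block. The code was tested on simulated data. Members, lists and rules were chosen with earlier results of these data known. Named genes are the 9 members, up to 3 genes of every pathway list, ranked by unadjusted p in the sham comparison, surface markers and the 2 genes most correlated with each member of at least 10 CPM. Outside that rule, Id1, Sost, Vwc2, Wfikkn1, Wfikkn2, Smad6, Smad7, the overlapping genes and the single cell type markers were named after their values were seen. Protein sequences were not used here. Part of the Schwann cell marker list is not reported here. Exon lengths and overlaps come from GENCODE M21.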

Additional observations from a re-analysis of the deposited data

How the results depend on the processing

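By edgeR and limma-voom 0 members passed in either comparison under any setting run, and by DESeq2 1, Chrd against all non-injured, a call lost on filtered genes. DESeq2 called 434 and 489 genes in all in the 2 comparisons, and 369 and 345 on filtered genes, where edgeR called 0 (3 and 5 with no filter) and limma-voom 1 and 7. With single libraries left out, the members whose groups did not overlap numbered 5 to 8 against sham control (8 without sham 2, where 56% of all genes did not overlap) and 3 to 5 against all non-injured (5 without sham 2 or without the uninjured library, where 28.5% and 23.1% of genes did not). Size factors by relative log expression gave 4 in place of 5, as Chrdl1 overlapped. Chrd, Chrdl1, Bmper, Fstl1 and Sostdc1 kept their sign against sham control in all alternatives, and Nog, Grem1, Chrd, Bmper, Fst, Fstl1 and Sostdc1 against all non-injured. The others turned with single libraries left out: Nog ran from -1.19 to 0.66, Grem1 from -9.73 to 7.01, Fst from -0.47 to 0.054 and Bambi from -0.16 to 0.64 against sham control, and Chrdl1 from -0.93 to 0.88 and Bambi from -0.65 to 0.24 against all non-injured. Without sham 1 and injured 1 together, Nog stood at 0.53 and Grem1 at 7.60. Extreme values of Grem1 come from groups left with no count and are no bounds, and for the others the cause was not tested. With library size as the sole scaling, the all-gene median against sham control was 0.23 in place of 0.09, with Chrd at -0.97 and Fstl1 at 0.93.

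With a replicate block over sham 1 and 2 and injured 1 and 2, 0 members passed, Chrd stood at -1.16, Fstl1 at 0.80 and Bambi at -0.13. The shared numbers are not known to pair the libraries: deviations of same-numbered libraries correlated at 0.353 and 0.0108 across genes, and sham 2 with injured 3 at 0.434. Deviations of the 2 sham libraries mirror each other, so these values are not independent. For Nog, Grem1 and Sostdc1, libraries at 0 allow no reading under 0.0496 to 0.0828 CPM.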
